A study of Caenorhabditis elegans with 40 samples.

Results

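Young adult Caenorhabditis elegans with a deletion in the receptor gene octr-1 were compared with wild-type animals at 20 °C, across all genes measured by RNA-seq. The comparison used 10 of the study's 40 libraries, taken by the genotype, age and temperature in the labels, 5 of strain octr-1(ok371) and 5 of wild-type N2. The study had 8 groups of 5 whole-animal libraries: both genotypes as young adults at 20 °C, and both as old adults kept at 15, 20 or 25 °C. All animals ate Escherichia coli OP50, and ok371 is a deletion allele present in every cell of the body, studied in 1 strain. Old adults at 20 °C, collected on day 14 of adulthood, are used only in the last comparison below. The labels number the replicates without saying that they came from separate cultures, so each p-value measures a spread that may be technical.

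OCTR-1 is a G protein-coupled receptor for octopamine, the invertebrate counterpart of noradrenaline, and is known from sensory neurons such as ASH and ASI. It is best known for lowering innate immune responses, among them those of the PMK-1 p38 kinase pathway, and the unfolded protein response in tissues outside the nervous system. Octopamine itself is made from tyrosine through tyramine by the enzymes TDC-1 and TBH-1.

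The 10 libraries held 28345966 to 40997854 reads and detected 17136 to 18406 of 42048 listed features. Levels below are normalized reads, the reads of a gene divided by 1 size factor per library. Of all features, 13122 passed the filter of at least 10 normalized reads in at least 5 libraries and were tested with limma on log2(value + 1). A gene is called where the Benjamini-Hochberg adjusted p-value was under 0.05, and fold changes are mutant over wild type on that log2 scale, with their SE. Means are given with the SD over 5 libraries, and other bracketed values with ± are log2 fold changes with their SE. Markers of intestine, epidermis, muscle, neurons, oocytes, germline and sperm were all detected. For 4 genes known from the few cells that use octr-1, the summed level was 7.45 to 15.8 in wild type and 6.31 to 23.1 in the mutant, with str-3 at 0 in every library and only 1 of the 4 above the filter. In bulk RNA from whole animals, fewer cells of a type and less RNA per cell cannot be told apart.

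The targeted gene came first. octr-1 was at 46.7, 45.7, 45.1, 34 and 47.9 normalized reads in wild-type replicates 1 to 5 and at 10.5, 18.7, 10.1, 12 and 10.6 in mutant replicates 1 to 5. The genotypes did not overlap, and octr-1 fell by 1.77 ± 0.20 on the log2 scale (adjusted p = 4.5e-06). The remaining reads cannot be assigned to the part of the gene inside or outside the deletion, because the values are sums per gene. In the reference assembly WBcel235 the ends of octr-1 and F14D12.1 overlap on opposite strands, and how the counting treated strands is not given in the sources used here. F14D12.1 itself was at 90.5 ± 8.87 in wild type and 73.7 ± 12 in the mutant and was not called (log2 fold change -0.30 ± 0.12).

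Of the other genes of octopamine and tyramine signalling, 1 was called. tdc-1, the tyrosine decarboxylase, was lower in the mutant by a small amount, from 9491 ± 506 to 8375 ± 304 (log2 fold change -0.18 ± 0.04, adjusted p = 0.00211). When libraries were scaled by total reads alone this value became -0.08 and was not called. tbh-1, the tyramine beta-hydroxylase, was at 9192 ± 410.0 in wild type and 8870.5 ± 530.2 in the mutant and was not called. The other octopamine receptors ser-3 (0.02) and ser-6 (0.26), the tyramine receptors tyra-2 (0.06) and tyra-3 (-0.02) and the tyramine-gated channel lgc-55 (0.00), with log2 fold changes in brackets, were not called either. The tyramine receptor ser-2 was below the filter.

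Among the 10 measured genes next to octr-1, 5 on each side, 2 were called, both higher in the mutant. Of all tested genes 43.6% were called and 19.6% were called higher, so this count does not set the neighbours apart from other genes. T22B7.7 was at 651, 695, 642, 674 and 552 in wild type and at 1287, 1217, 1082, 1391 and 1255 in the mutant. Every mutant library was far above every wild-type library, and T22B7.7 rose 1.94-fold (log2 fold change 0.95 ± 0.07, adjusted p = 4.95e-08). srv-7, of a chemoreceptor family, was at 33.1, 23.3, 19.2, 23.9 and 16 in wild type and at 59.97, 55.1, 52.5, 53.5 and 55.6 in the mutant (log2 fold change 1.26 ± 0.18, adjusted p = 3.9e-05). It overlaps T22B7.3 on the opposite strand in the reference, so their reads may be shared. The other 8 neighbours had log2 fold changes from -0.30 to 0.56 and were not called.

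A search for genes read in every library of 1 genotype at 10 or more reads, and at no more than 3 reads in each library of the other, found 2 genes present in wild type and 0 present in the mutant. Y102A5C.36 was at 272, 326, 320.4, 345 and 317 in wild type and at 0 in all 5 mutant libraries, at least 111-fold lower with the floor of 3 reads per library that a count of 0 allows. egas-3, of the degenerin family of sodium channels, was at 23.4, 43.9, 38.4, 34 and 30.9 in wild type and had 6 reads in the 5 mutant libraries together. The rise with the highest fitted fold among called genes, frm-5.2, of a FERM domain family, rested on uneven libraries. Its levels were 0, 0, 36.1, 6.3 and 26.6 in wild type and 63.1, 137, 95.9, 77.4 and 67.9 in the mutant (log2 fold change 3.85 ± 1.12, adjusted p = 0.0228), the call was lost without mutant replicate 2 (adjusted p = 0.0502), and under a pseudocount of 0.1 (0.0512). F47H4.2 fell from 64.1 ± 3.23 to 10.1 ± 3.54 with no overlap (log2 fold change -2.60 ± 0.20, adjusted p = 6.46e-08). These 4 genes were singled out after their values were seen.

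Most of the difference between the genotypes lay in small shifts. Of the tested genes 5722, or 43.6%, were called: 2572 (19.6%) higher and 3150 (24.0%) lower in the mutant, while the median over all tested genes was -0.01. Among the called genes 3542, or 61.9%, had a log2 fold change under 0.32 in size, and of these 720 were higher and 2822 lower. Between that size and 1.5-fold the balance turned, with 782 higher and 211 lower. From 1.5-fold to 2-fold it was 571 against 79. The authors' deposited table called 5317 of the tested genes, and 5251 were called by both with the same sign, which is 91.8% of the calls made here and 98.8% of theirs.

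Small called shifts and larger ones sat at different levels of expression. Tested genes were divided by mean CPM (reads per 1000000, not corrected for gene length) into 3 sets of 4374. In the high set 4.16% were called higher and 54% lower, with a median log2 fold change of -0.12. In the middle set the shares were 26% and 15.1%, with a median of 0.04. In the low set 28.6% were called higher and 2.97% lower, with a median of 0.26. The SE was larger in low genes, such as lipl-3 (0.22) and ins-23 (0.35), than in high genes, such as mcm-2 (0.04) and rsp-7 (0.03). A shift under 0.32 is therefore harder to call at low level, and the part of this in the counts by size and level was not tested. The sum of all normalized reads, in units of 1000000, was 34.4 to 36.5 in wild type and 32.7 to 32.96 in the mutant. Scaling by total reads alone raised the log2 fold changes by about 0.10, the difference between the groups in mean log2 scaling factor. It gave 3701 higher and 1015 lower, so that 78.5% of calls were higher against 44.9% as reported. Where a list is described as reduced in the young comparison, its counts under that scaling are given too.

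**Figure D1:**
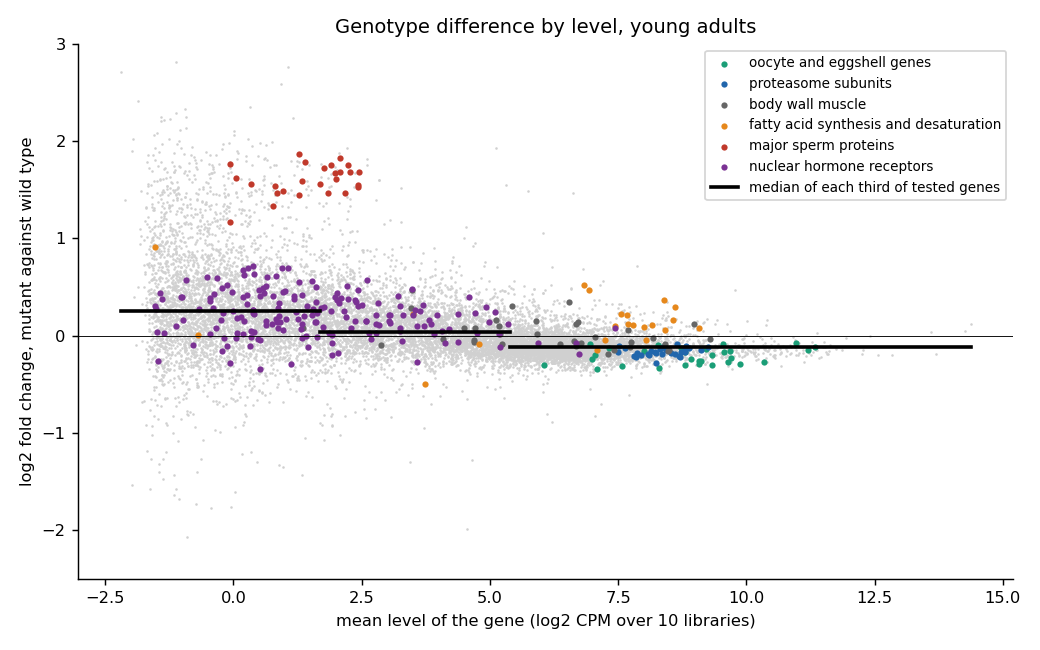
Log2 fold change of octr-1 mutant over wild type against the mean level of each of 13122 tested genes in log2 CPM, with 6 gene lists coloured and the median of each set of 4374 genes by level as a bar. These medians are 0.26, 0.04 and -0.12 from low to high, proteasome and oocyte genes lie below 0 at high level, and 4 genes lie outside the axis from -2.5 to 3.

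Of 75 lists of genes by tissue, pathway or family, 48 had a called share in 1 direction at least 1.5 times that of all tested genes, 29 of them higher and 19 lower. For 41 lists the mean over members in the 5 mutant libraries did not overlap that in the 5 wild-type libraries. Each list is described by its counts and its median, to be read against the 19.6% and 24.0% of all tested genes. Since those shares depend on level, the share at matched level is also given for many lists. It is that of all tested genes in the 3 sets by level, weighted by how many members each set holds. Of the 48 lists 27 were also at 1.5 times or more of the share at matched level, 23 of them higher and 4 lower. A gene near the filter can pass through the genotype where it is higher, so for lists of weakly expressed genes the counts over tested members are a description only.

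**Figure D2:**
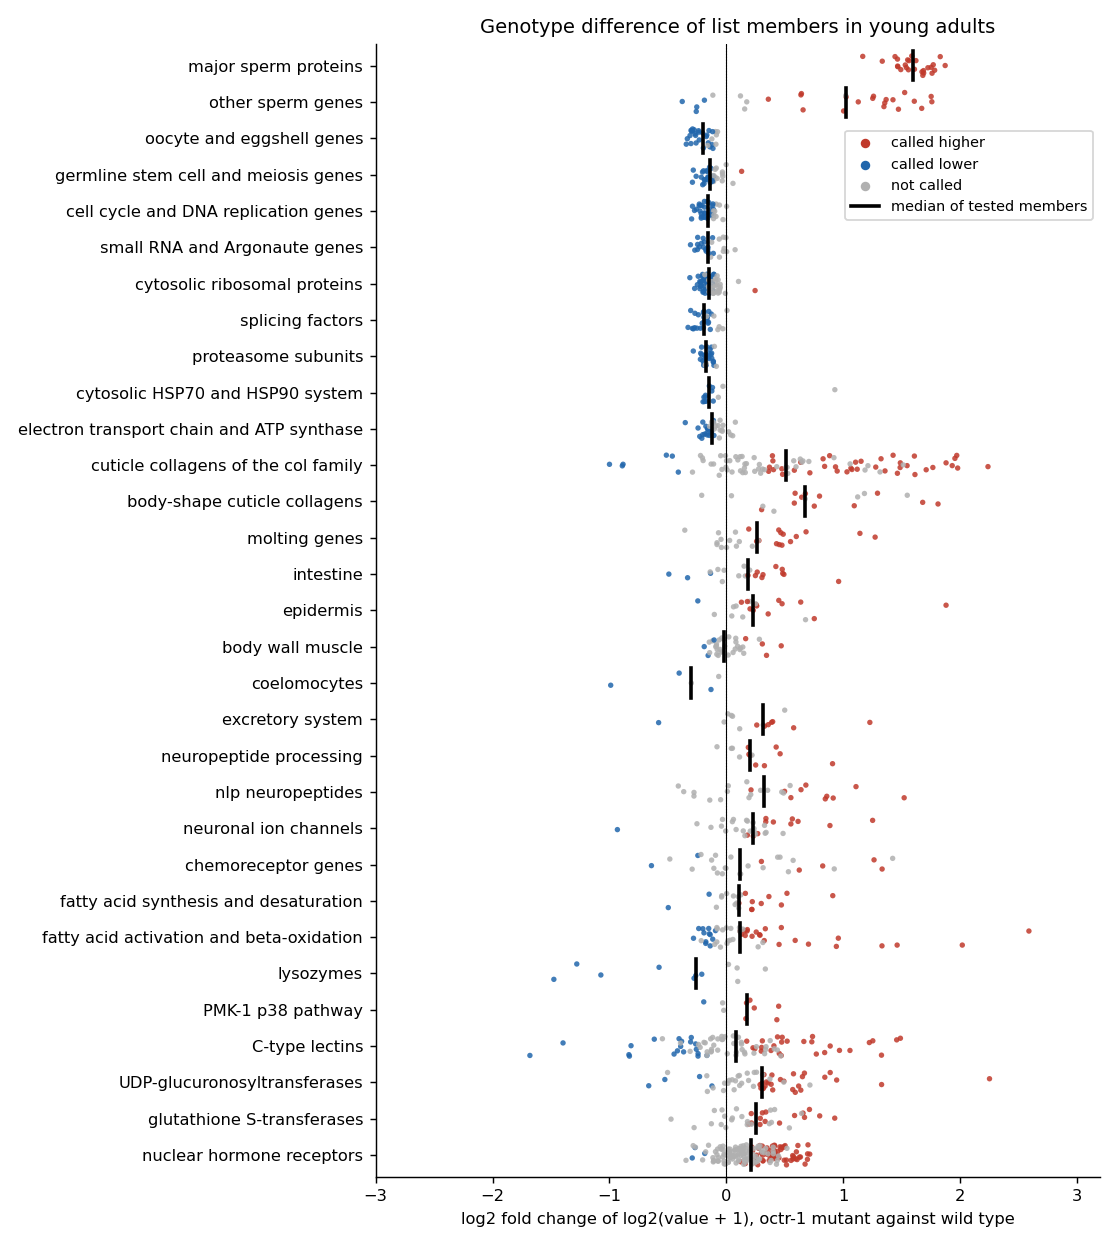
Log2 fold change of octr-1 mutant over wild type for each tested member of selected lists, coloured by whether the member was called higher, called lower or not called, with the median of the tested members as a bar. Medians of major sperm proteins and col collagens lie at 1.597 and 0.51, while oocyte and proteasome genes lie in narrow bands around -0.20 and -0.17.

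Genes of sperm were higher in the mutant and genes of oocytes slightly lower. Major sperm proteins form the crawling cytoskeleton of nematode sperm; 26 of 31 listed passed the filter, and all 26 were called higher with a median of 1.597. msp-49 was at 82.8, 25.095, 29.3, 42.8 and 44.7 in wild type and at 141, 131, 175, 138 and 189.7 in the mutant (log2 fold change 1.87 ± 0.27, adjusted p = 0.000362). The highest wild-type library was replicate 1, and it was still below every mutant library. Of 28 other sperm genes tested, 19 were higher and 4 lower. The gains included gsp-4, a sperm phosphatase (1.35 ± 0.32), smz-2, a PDZ protein of sperm (1.37 ± 0.21), and ssp-16, of a sperm-specific family (1.47 ± 0.30), as log2 fold changes. spe-39, a vesicle traffic gene also used outside sperm, was lower (-0.19 ± 0.04; not called when scaled by total reads), and fer-1, needed for sperm vesicle fusion, was not called (0.16 ± 0.20). The msp genes are nearly identical copies, so values of single members are uncertain.

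Wild-type replicate 1 stood apart in these lists. Its mean over major sperm proteins, on the log2 scale centred on the 10 libraries, was 0.12, against -1.27 to -0.70 in the other 4 wild-type libraries and 0.12 to 1.249 in the mutant. Mutant replicate 2 was the lowest of its group, at 0.12, and over the other sperm genes it was level with wild-type replicate 1 (0.02 and 0.03). Without wild-type replicate 1 the median fold change of the major sperm proteins was 1.83 and 26 of 26 tested were called higher. The summed level of 4 sperm markers was 68.1 to 157 in wild type and 153.4 to 284 in the mutant, and its part in the other results was not tested.

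**Figure D3:**
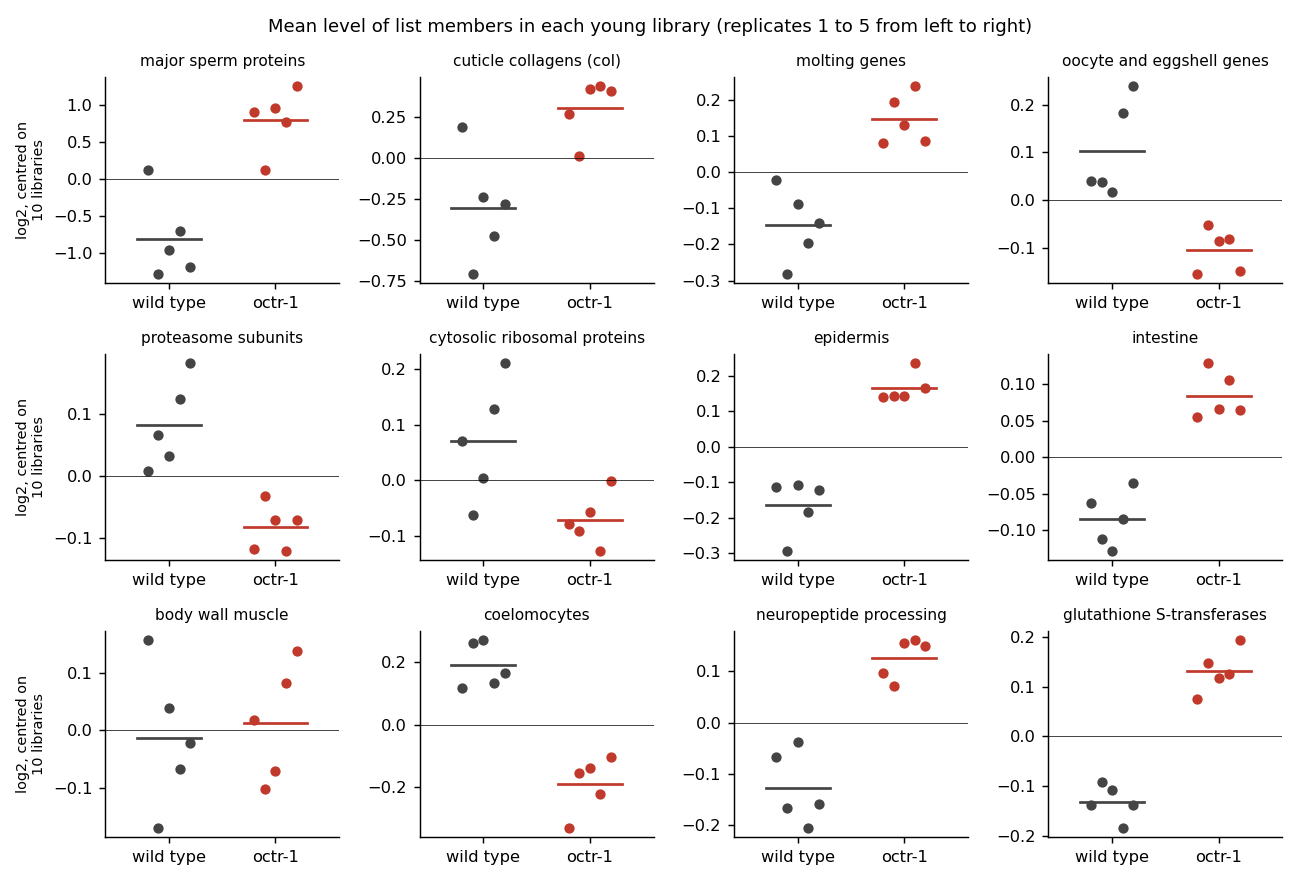
Mean of log2(value + 1) over the tested members of selected lists in each library, centred on the 10 libraries, with wild-type and mutant replicates 1 to 5 from left to right, the mean of each genotype as a bar and a separate scale in each panel. Wild-type replicate 1 lies above the other wild-type libraries for major sperm proteins, at 0.12 against -1.27 to -0.70, and oocyte genes run from 0.02 to 0.24 in wild type and -0.15 to -0.05 in the mutant.

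Of 31 oocyte and eggshell genes, 25 were lower and 0 higher, with a median of -0.20, and 18 did not overlap between the genotypes, set beside 15.5% of all tested genes. With scaling by total reads alone 16 were called lower. The share lower was 80.6%, next to 54% at matched level. All 31 genes were in the set at high level, and the share of genes without overlap there was not computed. rme-2, the yolk receptor of oocytes, was at 44446, 46185, 47509.8, 51802 and 54900.2 in wild type and 36995, 43682, 42761, 39487 and 39224 in the mutant (log2 fold change -0.27 ± 0.06, adjusted p = 0.00165). egg-5, which acts at the change from oocyte to embryo, was at 6950.2, 6886, 6667, 7504 and 8085 and 5800.3, 6016, 5854, 5818 and 5542 in the same order (-0.31 ± 0.05, adjusted p = 7.6e-05). For both genes every mutant library was below every wild-type library. The partner egg-4 (-0.34 ± 0.05) and the RNA-binding regulators puf-5 (-0.29 ± 0.08), oma-1 (-0.12 ± 0.04) and oma-2 (-0.14 ± 0.04) were lower too, although oma-1 and oma-2 lost their calls when scaled by total reads.

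Genes of the germline and of cell division were lower by small amounts, in shares above those of other highly expressed genes by different margins. Of 35 germline stem cell and meiosis genes 22 were lower and 1 higher, of 40 cell cycle and DNA replication genes 30 and 0, and of 27 small RNA and Argonaute genes 17 and 0, with medians of -0.14, -0.16 and -0.16. Scaled by total reads alone, the numbers lower were 7, 13 and 7. The shares lower were 62.9%, 75% and 63%, next to 50.6%, 53% and 51.1% at matched level. mcm-2, a subunit of the replicative helicase, was at 13766, 13630.2, 13207, 14657 and 14732 in wild type and 11567, 11855, 11621, 11728 and 11778 in the mutant (-0.26 ± 0.04, adjusted p = 4.96e-05). hrde-1, the nuclear Argonaute of inherited silencing, was at 29146, 29437, 29833, 30822 and 31474 and 24430.0, 24969, 24772, 24496 and 23148 in the same order (-0.31 ± 0.04, adjusted p = 7.07e-06). Neither gene overlapped between the genotypes. Other reductions were in orc-1 of the origin recognition complex (-0.29 ± 0.04), div-1 of DNA polymerase alpha (-0.23 ± 0.03), chk-2, the meiotic kinase (-0.29 ± 0.05), glh-2, a Vasa-like helicase of P granules (-0.20 ± 0.03), and rde-12, an RNA interference helicase (-0.25 ± 0.04). glp-1, the Notch receptor of germline stem cells, was lower (-0.19 ± 0.04) but not when scaled by total reads. The 1 gene called higher, zim-2 (0.13 ± 0.05), was not called when wild-type replicate 1, 4 or 5 or mutant replicate 1, 2 or 3 was left out (adjusted p = 0.0595 to 0.117). The summed markers of oocytes were 112402 to 134523 in wild type and 95802 to 109299 in the mutant, and those of the germline 57350 to 62475 and 51419 to 55703.

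Few yolk genes were called. Of 6 vitellogenins, which the intestine secretes as yolk, 1 was called higher and 0 lower. All 6 were in the set at high level, where 54% of all genes were called lower and 4.16% higher. vit-2 was at 658944 ± 28368 in wild type and 682897 ± 22062 in the mutant, and vit-5 at 415405 ± 8868 and 426205 ± 20543, neither called; when scaled by total reads both were called higher, at 0.15 and 0.14. vit-6 was higher (0.12 ± 0.04, adjusted p = 0.0308), but not when wild-type replicate 3 or 4 or mutant replicate 1, 2, 4 or 5 was left out (adjusted p = 0.0573 to 0.0969).

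Many genes of the machinery that makes and removes proteins were lower by small amounts, as were many other genes at their level. Of the lists in this paragraph only proteasome subunits reached 1.5 times the share lower at matched level. Splicing factors were lower in 24 of 30, proteasome subunits in 26 of 30, cytosolic ribosomal proteins in 49 of 77, translation factors in 18 of 28 and aminoacyl-tRNA synthetases in 20 of 32. The medians were -0.19, -0.17, -0.15, -0.14 and -0.11 in that order. With scaling by total reads alone the numbers lower were 9, 6, 7, 8 and 2. Mitochondrial ribosomal proteins were lower in 22 of 63, and under that scaling 4 were lower and their median of -0.08 became 0.02. Without wild-type replicate 4 the cytosolic ribosomal proteins called lower numbered 30. Every tested splicing, proteasome and cytosolic ribosomal gene was in the set of genes at high level, where 54% of all genes were called lower. The shares lower were 80% for splicing factors, 86.7% for proteasome subunits and 63.6% for cytosolic ribosomal proteins. For translation factors, tRNA synthetases and mitochondrial ribosomal proteins they were 64.3%, 62.5% and 34.9%, next to 49.8%, 52.8% and 42.9% at matched level.

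rsp-7, an SR protein of splicing, was at 6529, 6699.5, 6594, 6822 and 7036 in wild type and at 5642, 5609, 5544, 5564 and 5585 in the mutant (log2 fold change -0.27 ± 0.03, adjusted p = 1.06e-05). ife-3, a cap-binding translation initiation factor, was at 16239.8, 16986, 16995, 17028 and 17481 and 14375, 14353, 13987, 15183 and 14128 in the same order (-0.23 ± 0.04, adjusted p = 7.53e-05). In both genes the mutant libraries lay in a narrow band below all wild-type libraries. Similar reductions were seen for sfa-1 and rsp-8 of splicing (-0.28 ± 0.04 and -0.31 ± 0.04), for eif-3.E and eif-3.F of initiation factor 3 (-0.20 ± 0.03 and -0.20 ± 0.04), and for the tyrosyl- and asparaginyl-tRNA synthetase genes yars-1 and nars-2 (-0.34 ± 0.05 and -0.29 ± 0.04). nars-1 (-0.18 ± 0.04) was called lower except when scaled by total reads. iff-2, an eIF5A gene, was higher instead (0.29 ± 0.08, adjusted p = 0.013). The 1 ribosomal gene called higher, rpl-11.2 (0.25 ± 0.09), lost its call when wild-type replicate 3 or mutant replicate 2, 3 or 5 was left out (adjusted p = 0.069 to 0.0873).

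Chaperones divided by class. The chaperonin that folds actin and tubulin was lower in 6 of 8 subunits, and the cytosolic HSP70 and HSP90 system in 10 of 13 genes, with medians of -0.15 and -0.15; scaled by total reads alone 2 and 2 were lower. The shares lower were 75% and 76.9%, next to 54% and 50.1% at matched level. cct-7 was at 16757, 15858, 16647, 17113 and 19501 in wild type and 13064, 14435, 14526, 13667 and 14832 in the mutant (-0.28 ± 0.05, adjusted p = 0.000369). daf-21, the HSP90 gene, was at 205069, 223467, 219487, 219737 and 232338 and 187776, 191337, 193722, 188374 and 196106 in the same order (-0.20 ± 0.04, adjusted p = 0.000633). Neither gene overlapped between the genotypes. The constitutive hsp-1 (-0.19 ± 0.04) and the regulator hsf-1 (-0.18 ± 0.04) were lower, the second not when scaled by total reads. Of 9 small heat shock proteins 4 were higher and 1 lower, a share higher of 44.4% next to 22.3% at matched level. The classes also differed in level. All 8 chaperonin subunits and 12 of the HSP70 and HSP90 genes were in the high set. Only 2 small heat shock genes were, 1 higher and 1 lower. hsp-17 was at 327, 425, 399, 356 and 368 in wild type and 496, 544, 523, 538 and 541 in the mutant (0.50 ± 0.07, adjusted p = 3.33e-05), with no overlap. hsp-43 was also higher (0.22 ± 0.04). The reduction of sip-1 (-0.27 ± 0.09, adjusted p = 0.0374) was lost when wild-type replicate 4 or 5 or mutant replicate 1, 2 or 5 was left out (adjusted p = 0.0562 to 0.0877).

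For the unfolded protein response, which OCTR-1 is known to lower, the endoplasmic reticulum list was divided. Of 25 tested genes 4 were higher and 9 lower, with a median of -0.03, and under scaling by total reads alone 7 were higher and 1 lower. The shares were 16% higher and 36% lower, next to 6.79% and 49.3% at matched level. The number lower was 5 without mutant replicate 4 and 5 without mutant replicate 5. hsp-4, the BiP chaperone used as the reporter of the response, was at 17761, 19419, 18887, 18867 and 19381 in wild type and 18042, 18158, 18059.9, 18437 and 17370.2 in the mutant and was not called (-0.07 ± 0.04). The sensor ire-1 (-0.03 ± 0.04) and its target xbp-1 (-0.08 ± 0.04) were not called either. The abu genes, induced when the response is blocked and also active in pharyngeal cuticle formation, had 4 of 15 listed members above the filter, with 2 higher. abu-14 was at 16.6, 6.27, 4.51, 2.52 and 2.13 in wild type and 9.47, 10.8, 16.15, 17.6 and 10.6 in the mutant (1.18 ± 0.40), and wild-type replicate 1 lay within the mutant range. It was not called without wild-type replicate 4 or 5 (adjusted p = 0.0682 and 0.0669), and abu-12 (0.87 ± 0.29) not without wild-type replicate 2 or mutant replicate 1 (0.065 and 0.0564). In DESeq2 neither was called (adjusted p = 0.0651 for abu-12 and 0.0989 for abu-14), and abu-14 was not called in edgeR (0.0705). Of 26 autophagy genes 10 were lower and 1 higher, with a median of -0.05. The share lower was 38.5%, next to 34.1% at matched level. Scaled by total reads 2 were lower and 5 higher, with a median of 0.05. The reductions included atg-5 (-0.23 ± 0.05) and epg-6 (-0.21 ± 0.04); atg-18 (-0.17 ± 0.04) was not called under that scaling.

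Genes of the cuticle and of molting were higher. Of 157 col collagens listed, 93 passed the filter, 39 were higher and 6 lower, and the median was 0.51. Wild-type replicate 1 was above the other wild-type libraries here as well, at 0.18 against -0.71 to -0.24, and without it 51 of 90 were higher and 5 lower. Body-shape collagens were higher in 11 of 19 tested, cuticlins in 8 of 20 and molting genes in 14 of 27, with 0 lower in these 3 lists. In the order col, body-shape, cuticlin and molting the shares higher were 41.9%, 57.9%, 40.0% and 51.9%, next to 21.8%, 27.9%, 28.3% and 24.7% at matched level. Without wild-type replicate 1, 5 of 19 cuticlins were higher, and 15 of 26 molting genes were higher and 2 lower. Cuticlins were higher in 5 without mutant replicate 1 or 4, and in 4 without mutant replicate 2 or 3. The summed level of 5 larval and molt markers was 4339 to 4608 in wild type and 4653 to 5263 in the mutant, so the genotypes did not overlap; its part in these lists was not tested.

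dpy-10, a collagen that sets body shape, was at 209, 212, 240.3, 243 and 253 in wild type and 378, 416, 363, 377 and 321 in the mutant (log2 fold change 0.68 ± 0.08, adjusted p = 6.5e-06). noah-2, a component of the outer matrix shed at molts, was at 504, 416, 540.4, 410.5 and 461 and 707, 787, 599, 721 and 713 in the same order (0.60 ± 0.08, adjusted p = 5.61e-05). peb-1, a transcription factor needed for molting of the pharynx, was at 33.1, 41.2, 33.8, 36.5 and 40.5 and 78.9, 98.3, 72.7, 87 and 78.5 (1.14 ± 0.13, adjusted p = 4.27e-06). All 3 genes were higher in every mutant library than in any wild-type library. The collagen col-95 fell, from 3409.6 ± 340.2 to 1846 ± 170.2 (-0.88 ± 0.07, adjusted p = 2.17e-06). Further members called higher were col-153 (0.88 ± 0.10), dpy-14 (0.59 ± 0.08), sqt-3 (0.58 ± 0.09), the cuticlins cutl-16 (0.53 ± 0.11) and cut-4 (0.40 ± 0.09), and mlt-11, a secreted protease inhibitor (0.45 ± 0.07). nas-37, the astacin protease that opens the old cuticle, rose less (0.19 ± 0.05). nhr-23, the receptor that drives molting genes in larvae, was not called (-0.08 ± 0.04), nor was col-19, an adult collagen (0.14 ± 0.11). Of 22 patched-related genes 9 were higher, ptr-14 among them (0.56 ± 0.09), and 3 were lower, including ptr-21 (-0.32 ± 0.05).

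Tissue lists moved in different directions. In the intestine 10 of 21 tested genes were higher and 3 lower, with a median of 0.18, and in the epidermis 12 of 21 and 1, with a median of 0.23. The shares higher were 47.6% and 57.1%, next to 13.5% and 17.4% at matched level. ifc-2, an intermediate filament of the intestinal terminal web, was at 2839.8, 2609, 2775, 2800.2 and 2767 in wild type and 3677, 3845, 3795, 4090.3 and 4001 in the mutant (0.49 ± 0.04, adjusted p = 9.7e-08). Its partner ifb-2 was at 2572, 2790.0, 2703, 2814 and 2993 and 3661, 3959, 3905, 3908 and 3874 (0.48 ± 0.04, adjusted p = 3.35e-07). Both filament genes were higher in every mutant library, and the filament gene ifp-1 rose by more (0.96 ± 0.10). The peptide transporter pept-1 was higher (0.25 ± 0.03, adjusted p = 2.7e-05). elt-2, the GATA factor of the intestine, moved the other way, from 443, 356, 417, 428 and 454 to 336, 315, 334, 329 and 348 (-0.33 ± 0.07, adjusted p = 0.00101), with no overlap. The brush border actin act-5 was not called (0.15 ± 0.06), but was called higher in DESeq2 and edgeR (adjusted p = 0.0375 and 0.0389). Of the 5 intestinal markers 2 were called higher and 2 lower, the lower ones being elt-2 and ges-1. The call of ges-1 was lost when wild-type replicate 1, 3 or 5 or mutant replicate 1, 2 or 5 was left out. In those fits its log2 fold change was -0.13 to -0.12 (adjusted p = 0.0728 to 0.0922). The summed intestinal markers were 24757 to 29018 in wild type and 28958 to 31649 in the mutant, a slight overlap, and their part in this list was not tested.

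In the epidermis, pah-1, the phenylalanine hydroxylase, was at 1505, 1153, 1223, 1210.0 and 1227 in wild type and 1799, 1694, 1589, 1773 and 1915 in the mutant (0.48 ± 0.07, adjusted p = 6.23e-05). Wild-type replicate 1 was the highest of its group and still below the mutant libraries. The junction gene ajm-1 (0.26 ± 0.04) and the collagens col-10 (0.64 ± 0.11) and dpy-7 (0.75 ± 0.22) were higher, lin-26, a factor of epidermal and glial fate, was lower (-0.24 ± 0.04), and the GATA factor elt-3 was not called (0.20 ± 0.09).

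Few muscle genes were called. Of 35 body wall muscle genes 4 were higher and 3 lower, with a median of -0.02, and of the 22 at high level 3 were lower, against 54% of all genes there. The median became 0.08 when scaled by total reads, and the number higher was 2 without wild-type replicate 2, 4 or 5 or mutant replicate 1. Of the 4 body wall muscle markers 1 was called higher, the myosin heavy chain gene myo-3. Its call was lost without wild-type replicate 2, 4 or 5 or mutant replicate 1 (log2 fold change 0.27 to 0.30, adjusted p = 0.0509 to 0.0585). The myosin heavy chain unc-54 (0.12 ± 0.12), paramyosin unc-15 (0.06 ± 0.10) and the myogenic factor hlh-1 (0.08 ± 0.16) were not called. Of 11 pharyngeal muscle genes 1 was higher and 3 lower; the pharyngeal myosins myo-1 (0.21 ± 0.24) and myo-2 (0.15 ± 0.24) were not called, and the organ selector pha-4 was higher (0.34 ± 0.10).

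Coelomocytes, scavenger cells of the body cavity, had 5 genes tested, of which 3 were lower and 0 higher, with a median of -0.30; scaled by total reads 2 were lower. unc-122, known from coelomocytes, was at 35, 35.9, 45.1, 35.3 and 36.2 in wild type and 12.63, 20.6, 21.2, 19.95 and 18.5 in the mutant (-0.99 ± 0.18, adjusted p = 0.000398). cup-4, needed for their endocytosis, was at 111.96, 143, 123, 99.5 and 115 and 84.2, 86.5, 97.9, 91 and 84.7 (-0.40 ± 0.11, adjusted p = 0.00546). Both were lower in every mutant library, and their summed level was 135 to 179 in wild type and 96.8 to 119 in the mutant. cup-2, an endoplasmic reticulum degradation gene expressed more widely, was called lower (-0.13 ± 0.05) but not when wild-type replicate 2, 4 or 5 or mutant replicate 1, 3, 4 or 5 was left out (adjusted p = 0.0562 to 0.108). rme-8, of endosomal traffic (-0.07 ± 0.04), and lgc-26 (-0.30 ± 0.15) were not called.

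The excretory system list had 7 of 15 higher and 1 lower, with a median of 0.32. The share higher at matched level was 22.5%. lin-48, a factor of excretory duct and hindgut fate, was at 5.84, 11.7, 11.3, 12.59 and 8.52 in wild type and 19.99, 24.6, 23.2, 22.3 and 30.9 in the mutant (1.23 ± 0.24, adjusted p = 0.000612). The canal genes exc-6, a formin (0.39 ± 0.10), and exc-7, an RNA-binding protein (0.40 ± 0.11), were higher, whereas aqp-8, the canal aquaporin, fell from 449, 304, 363, 379 and 386 to 215, 263, 237, 269 and 269 (-0.58 ± 0.09, adjusted p = 0.000146). All 5 mutant libraries of aqp-8 were below the wild-type ones. Of 9 glial genes 4 were higher and 1 lower; the potassium chloride transporter kcc-3 (0.73 ± 0.15), the glial factor pros-1 (0.66 ± 0.14) and fig-1 of amphid sheath glia (0.51 ± 0.13) were among the higher.

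Neuropeptide processing genes were higher, and nlp and flp precursors differed less from other genes at their levels. nlp peptide precursors were higher in 10 of 26 tested members of 33 and lower in 0, and neuropeptide processing genes in 8 of 13 and 0, with medians of 0.32 and 0.20. The FMRFamide-like flp precursors had 4 of 28 higher and 1 lower. The shares higher were 61.5% for processing genes, 38.5% for nlp and 14.3% for flp precursors, next to 24.6%, 26.3% and 28.2% at matched level. By the mean over nlp precursors the genotypes overlapped: wild-type replicate 1, at 0.08, was above the other wild-type libraries (-0.33 to -0.12) and above mutant replicate 1 (0.02). Without wild-type replicate 4 the processing genes called higher numbered 5. Of 34 synaptic vesicle and active zone genes 8 were higher and 6 lower, and of 24 ciliated sensory neuron genes 5 and 4. Scaled by total reads 16 synaptic genes were higher and 2 lower, and 6 ciliated neuron genes higher and 2 lower. The ciliated sensory neuron genes called higher numbered 2 without wild-type replicate 4 and 3 without mutant replicate 1, 2 or 5. The shares of synaptic and ciliated neuron genes higher were 23.5% and 20.8%, next to 20.4% and 26.8% at matched level. Most chemoreceptor genes were below the filter in whole animals; 28 of 1340 were tested, with 5 higher and 2 lower.

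nlp-20 was at 238, 173, 177, 155 and 223 in wild type and 533, 584, 501, 533 and 597 in the mutant, a 2.87-fold rise (log2 fold change 1.52 ± 0.10, adjusted p = 5.97e-08). ida-1, a phosphatase-like protein of dense-core vesicles, was at 269, 220.5, 271, 203 and 233 and 450.3, 411, 442, 457 and 476 (0.91 ± 0.08, adjusted p = 3.51e-07). In both genes the lowest mutant library was above the highest wild-type library. nlp-17 (1.11 ± 0.12) and nlp-10 (0.85 ± 0.12) rose too, and so did aex-5, a proprotein convertase (0.43 ± 0.07), and cccp-1, of dense-core vesicle sorting (0.33 ± 0.08). Of 10 insulin-like peptides above the filter 3 were higher, with ins-5 at 13.2 ± 2.58 in wild type and 29.3 ± 4.63 in the mutant (1.09 ± 0.20, adjusted p = 0.000393). ins-12 was higher as well (0.92 ± 0.24). The share of insulin-like peptides higher was 30%, next to 28.3% at matched level.

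Neuronal ion channels were higher in 11 of 33 and lower in 1, with a median of 0.23. The share higher was 33.3%, next to 27.7% at matched level, and scaled by total reads 18 were higher. The number higher was 5 without mutant replicate 1, and 7 without wild-type replicate 4 or 5 or mutant replicate 3 or 5. mec-10, of the touch receptor channel, was at 9.74, 7.17, 16.9, 6.3 and 5.32 in wild type and 19.99, 20.6, 23.2, 16.8 and 27.3 in the mutant (1.251 ± 0.28, adjusted p = 0.00179), where the highest wild-type library just passed the lowest mutant library. The potassium channels egl-2 (0.89 ± 0.18) and unc-103 (0.34 ± 0.08) were also higher. glc-1, a glutamate-gated chloride channel subunit, was the exception, at 165, 171, 164, 184 and 193 in wild type and 76.8, 120.0, 97.9, 91.8 and 75.9 in the mutant (-0.93 ± 0.12, adjusted p = 1.29e-05), with no overlap. Of transmitter genes, unc-17, the acetylcholine transporter, was higher (0.58 ± 0.19) but not without wild-type replicate 4 (adjusted p = 0.0505), and eat-4, the glutamate transporter, was not called (0.37 ± 0.25). daf-7, a TGF-beta ligand made in ASI, was at 7.65 ± 3.34 in wild type and 12.7 ± 4.93 in the mutant and was not called. The summed level of 6 neuronal markers was 524 to 693 in wild type and 667 to 767 in the mutant, and its part in these lists was not tested.

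Genes of the mitochondrial core were lower about as often as other genes at their level. Of 37 respiratory chain and ATP synthase genes 21 were lower and 0 higher, and of 23 genes of the TCA cycle and pyruvate dehydrogenase 12 and 2, with medians of -0.13 and -0.11; scaled by total reads alone, 3 and 4 were lower and 3 and 3 higher. In the set at high level 20 of 35 and 12 of 21 were lower, next to 54% of all genes there. pdhb-1, of pyruvate dehydrogenase, was at 9736, 9026, 9091, 9417 and 10099 in wild type and 7327, 7535, 7583, 7602 and 7796 in the mutant (-0.32 ± 0.04, adjusted p = 5.92e-06). mev-1, the cytochrome b subunit of complex II, was lower (-0.35 ± 0.06), as were atp-2 of ATP synthase (-0.23 ± 0.04), nduf-2.2 of complex I (-0.20 ± 0.04) and ogdh-1 of the oxoglutarate dehydrogenase (-0.24 ± 0.04). aco-1, the cytosolic aconitase, was higher (0.25 ± 0.04, adjusted p = 0.000154). Of 21 glycolysis and gluconeogenesis genes 8 were lower and 2 higher, a balance that turned to 2 and 6 when scaled by total reads, and 8 of the 17 at high level were lower, with gpd-1 lower (-0.27 ± 0.06) and pfk-1.2 higher (1.19 ± 0.28).

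Fatty acid synthesis and desaturation genes were higher in 10 of 22 and lower in 2, and activation and beta-oxidation genes in 22 of 52 and 12. The shares higher were 45.5% and 42.3%, next to 9.37% and 14.4% at matched level. Scaled by total reads 16 and 28 were higher and 1 and 1 lower. Without mutant replicate 4 the beta-oxidation genes called lower numbered 7. fat-3, the delta-6 desaturase, was at 3282, 3831, 3598, 3426 and 3484 in wild type and 4545, 5199.7, 4899, 4718 and 5052 in the mutant (0.47 ± 0.05, adjusted p = 9.97e-07). fat-2, the desaturase before it on the path to polyunsaturated fatty acids, was at 11592, 12168, 11854, 12254 and 11993 and 14731, 15064, 14021, 14889 and 14921 (0.30 ± 0.03, adjusted p = 4.93e-06). The elongase elo-6, which makes branched-chain fatty acids, rose as well (0.36 ± 0.04), and fat-5, the palmitoyl desaturase, fell (-0.50 ± 0.08, adjusted p = 0.000185). The fold changes of fat-3, fat-2 and elo-6 were positive although these genes were in the set at high level, where 4.16% of genes were called higher.

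The called beta-oxidation gene with the highest fold was ech-9, an enoyl-CoA hydratase, at 30.2, 31.4, 18.1, 26.4 and 20.2 in wild type and 199.9, 117.997, 141, 134 and 191 in the mutant (6.01-fold, log2 fold change 2.59 ± 0.18, adjusted p = 2.61e-08). cpt-5, a carnitine palmitoyltransferase gene, was at 504, 548, 533, 548 and 475 and 742, 783, 846, 725 and 828 (0.59 ± 0.06, adjusted p = 1.45e-06), while cpt-1 was lower (-0.28 ± 0.04). lipl-1, a lysosomal lipase, was at 8.76, 16.13, 11.3, 15.1 and 14.9 in wild type and 46.3, 51.1, 31.3, 34.3 and 37 in the mutant (1.53 ± 0.21, adjusted p = 3.33e-05). These rises separated the genotypes without overlap for ech-9, cpt-5 and lipl-1. Altogether 3 of 5 tested lipl genes were higher, lipl-2 (0.82 ± 0.26) and lipl-3 (0.67 ± 0.22) included, the last not when wild-type replicate 2 or mutant replicate 2 or 3 was left out (adjusted p = 0.0545 to 0.0581). Of 9 lipid-binding proteins 4 were higher, among them lbp-5 (0.51 ± 0.08) and lbp-6 (0.26 ± 0.04), and 1 was lower. In the propionate shunt and methionine cycle 9 of 23 genes were higher and 2 lower, with the phosphoethanolamine methyltransferase pmt-1 (0.33 ± 0.05) and cbs-1 (0.29 ± 0.05) higher and mmcm-1, the methylmalonyl-CoA mutase, lower (-0.23 ± 0.03).

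**Figure D4:**
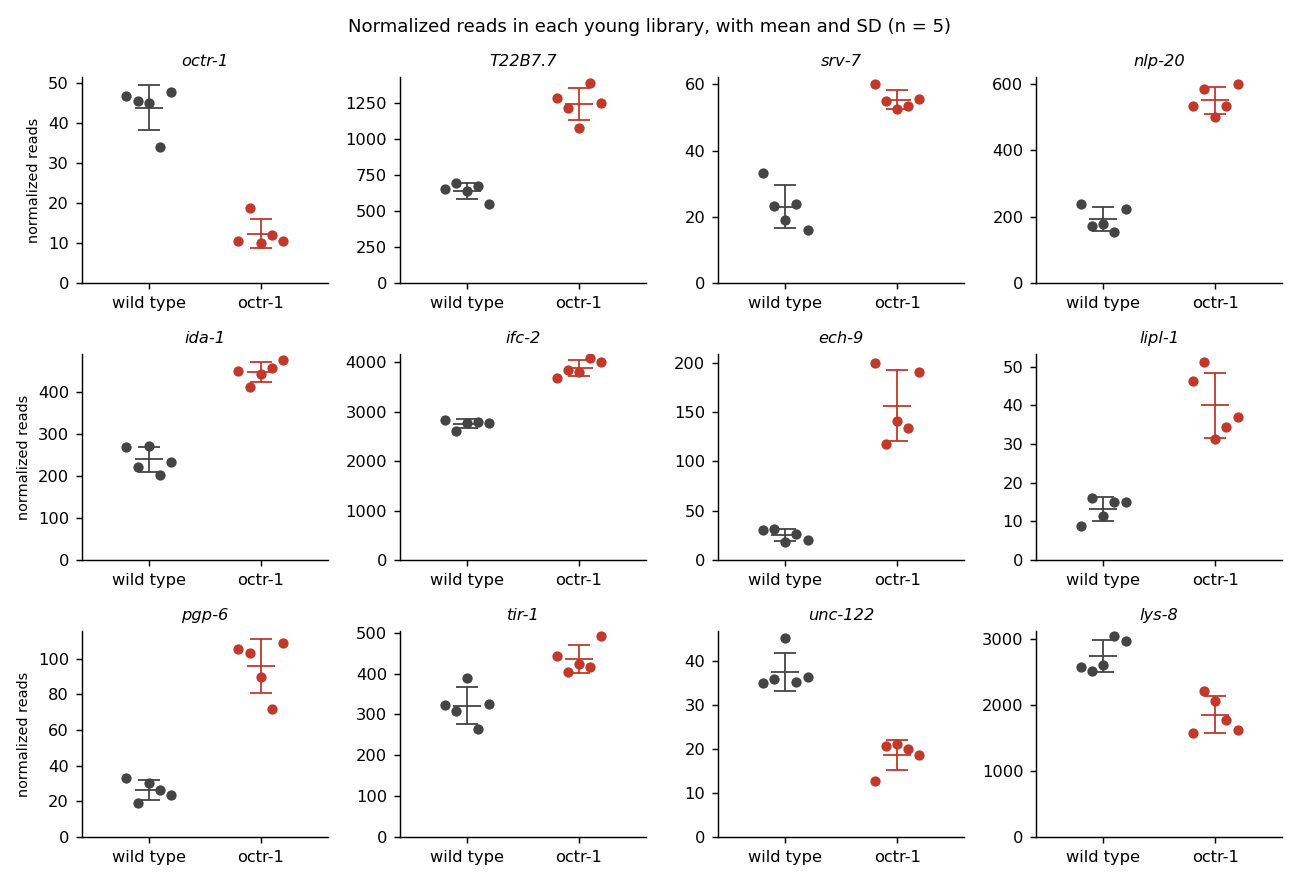
Normalized reads of 12 genes in each library, 5 wild type and 5 octr-1 mutant, with the mean and SD and a separate scale in each panel that starts at 0. octr-1, unc-122 and lys-8 are lower in the mutant and the other 9 genes higher, ech-9 from a mean of 25.3 ± 5.92 to 157 ± 36.3.

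The immune signalling genes known to be tied to OCTR-1 showed small rises in the kinase pathway and divided changes in its outputs. The p38 pathway runs from the adaptor TIR-1 through the kinases NSY-1, SEK-1 and PMK-1 to the factor ATF-7, and is switched off by the phosphatase VHP-1. Of 9 genes tested 6 were higher and 1 lower, with a median of 0.17. The share higher at matched level was 18.7%. tir-1 was at 323, 307, 389, 263 and 326 in wild type and 444, 405, 424, 417 and 493 in the mutant (0.45 ± 0.09, adjusted p = 0.000661). vhp-1 was at 404, 394, 349, 355 and 372 and 459.8, 507, 533, 523 and 505 in the same order (0.43 ± 0.06, adjusted p = 5.2e-05). tir-1 and vhp-1 were each higher in every mutant library. The kinase genes nsy-1 (0.17 ± 0.05), sek-1 (0.17 ± 0.05), pmk-1 (0.20 ± 0.06) and tpa-1 (0.24 ± 0.07) rose by less, dkf-2, a protein kinase D acting in the intestine, fell (-0.19 ± 0.05; not when scaled by total reads), and atf-7 (-0.03 ± 0.04) and skn-1 (-0.02 ± 0.04) were not called.

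Of 14 PMK-1 effectors tested 4 were higher and 2 lower. The share higher was 28.6%, next to 27.3% at matched level. dod-24, a CUB-like protein, was at 285, 203, 234.7, 206 and 244 in wild type and 442, 356, 341, 363 and 418 in the mutant (0.71 ± 0.10, adjusted p = 3.38e-05). The other 3 that rose were dod-17 (0.70 ± 0.15), F35E12.5 (0.83 ± 0.08) and Y37A1A.2 (0.87 ± 0.15), while the lectin clec-85 (-0.37 ± 0.07) and the thaumatin-like thn-2 (-0.57 ± 0.07) fell. The reporter gene of the pathway, T24B8.5, was at 11.7, 25.095, 27.1, 18.9 and 33 in wild type and 13.7, 22.6, 20.2, 17.6 and 13.2 in the mutant and was not called (-0.34 ± 0.26), nor was F08G5.6 (0.13 ± 0.10).

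Lysozymes, which break bacterial walls, were lower in 7 of 11 tested and higher in 0, with a median of -0.26, and 6 were lower when scaled by total reads. The share lower was 63.6%, next to 25.9% at matched level. lys-8 was at 2575, 2508, 2596, 3043 and 2959 in wild type and 1575, 2212, 2060.5, 1762 and 1620.4 in the mutant (-0.58 ± 0.10, adjusted p = 0.001). By the mean over the list the genotypes overlapped: mutant replicate 2, at 0.20, lay within the wild-type range of 0.11 to 0.31, and the other mutant libraries were at -0.54 to -0.06. lys-1 (-0.28 ± 0.06) and the invertebrate-type ilys-5 (-0.21 ± 0.04) were also lower. C-type lectins, sugar-binding proteins many of which respond to infection, were higher in 27 and lower in 19 of 87. Scaled by total reads 35 were higher and 15 lower. Among them clec-70 was at 57.4, 38.5, 44, 44.1 and 35.14 in wild type and 119.9, 98.3, 97.9, 88.6 and 157 in the mutant (1.33 ± 0.16, adjusted p = 8.83e-06), and clec-10 was lower (-0.39 ± 0.05). Epidermal antimicrobial peptides had 8 of 29 higher and 3 lower, a share higher of 27.6% next to 27.5% at matched level.

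Digestive proteases were divided. asp-8, an aspartyl protease, was at 75, 69, 74.5, 69.2 and 74.5 in wild type and 187, 194, 176, 188 and 194 in the mutant (1.36 ± 0.08, adjusted p = 4.77e-09), and 5 of 12 aspartyl proteases were higher and 2 lower, asp-17 among the latter (-1.40 ± 0.24). Of 8 cysteine cathepsins 3 were lower, with cpr-1 at 24342 ± 1808 in wild type and 17390.4 ± 2302 in the mutant (-0.49 ± 0.09), and 1 was higher, cpr-5 (0.24 ± 0.05). Scaled by total reads 1 cathepsin was lower and 3 higher. The share of cathepsins lower was 37.5%, next to 44.3% at matched level. For aspartyl proteases the share higher was 41.7%, next to 11.7% at matched level.

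Several detoxification families were higher. UDP-glucuronosyltransferases, which tag small molecules with sugars, were higher in 26 of 54 tested members of 65 and lower in 4, and 22 of those higher did not overlap, against 11.1% of all tested genes. The share higher at matched level was 25.5%, and the share without overlap at matched level was not computed. ugt-47 was at 1144, 1358, 1367, 1093 and 1133 in wild type and 1773, 1599, 1734, 1625 and 1812 in the mutant (0.49 ± 0.06, adjusted p = 3.21e-05). ugt-63 moved the other way, from 723 ± 52 to 501 ± 24.4 (-0.53 ± 0.06, adjusted p = 4.1e-06). Glutathione S-transferases were higher in 15 of 36 and lower in 0, with gst-27 at 1098, 1145, 1170.0, 1148 and 1131 and 1596, 1481, 1527, 1605 and 1596 (0.45 ± 0.04, adjusted p = 4.95e-07). gst-6 (0.71 ± 0.10) and gst-10 (0.58 ± 0.09) rose as well. ABC transporters, which export small molecules, were higher in 16 of 42 and lower in 5. For the transferases gst and the ABC transporters the shares higher were 41.7% and 38.1%, next to 26% and 21.5% at matched level. The change of smallest p among ABC transporters was a reduction: haf-6, needed for efficient RNA interference, was at 1588, 1472, 1551, 1633 and 1712 in wild type and 409, 407, 386, 402 and 400.5 in the mutant, 3.96-fold lower with no overlap (log2 fold change -1.98 ± 0.05, adjusted p = 2.15e-15). pgp-6 was at 33.1, 18.8, 30.5, 26.4 and 23.4 in wild type and 105, 103.2, 89.9, 71.8 and 108 in the mutant (3.55-fold, log2 fold change 1.83 ± 0.16, adjusted p = 4.22e-07), and pgp-4 was higher (0.69 ± 0.08). Of 50 cytochrome P450 genes 10 were higher and 7 lower, 16 and 4 when scaled by total reads, and 6 higher without mutant replicate 1 or 3.

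Antioxidant enzymes were lower in 9 of 22 and higher in 2, with a median of -0.09; scaled by total reads 5 were lower and 5 higher, with a median of 0.01. prdx-2, a peroxiredoxin, was at 22159, 20736, 21181, 23072 and 23031 in wild type and 17851, 18154, 17588, 19202 and 17414 in the mutant (-0.29 ± 0.04, adjusted p = 4.22e-05). The mitochondrial superoxide dismutase sod-2 (-0.23 ± 0.04) and the glutathione peroxidase gpx-2 (-0.29 ± 0.04) were lower, and msra-1, a methionine sulfoxide reductase, was higher (0.33 ± 0.06). Among outputs and members of the DAF-16 insulin pathway 6 of 22 were higher and 4 lower, 7 and 1 when scaled by total reads. The share of antioxidant enzymes lower was 40.9%, next to 36.4% at matched level.

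Nuclear hormone receptors were higher in 66 of 179 tested members of 282 and lower in 3, and F-box genes in 43 of 209 and 10, shares higher of 36.9% and 20.6% next to 27% and 27.5% at matched level. Homeobox genes had 10 higher and 10 lower of 58, which became 12 and 2 when scaled by total reads, and BTB and MATH domain genes had 8 higher and 12 lower of 71, which became 12 and 7 when scaled by total reads. Without wild-type replicate 4 the numbers higher were 6 homeobox and 5 BTB and MATH domain genes. In the middle set by level 35 of 71 tested nuclear hormone receptors were higher, next to 26% of all genes there, and in the low set, which held all but 4 of the other receptors, 31 were higher, where the share of all genes was 28.6%. nhr-66 was 1 of the receptors called lower (-0.18 ± 0.04; not when scaled by total reads). Among the lists not yet described, hedgehog-related genes had 6 higher and 2 lower of 23, astacin metalloproteases 3 and 1 of 21, transthyretin-like genes 9 and 5 of 45, and glutamine- and asparagine-rich pqn genes 9 and 12 of 47 (scaled by total reads, 10 and 7). In that order the shares higher were 26.1%, 14.3%, 20.0% and 19.1%, next to 27.7%, 28.1%, 23.1% and 20.6% at matched level. Genes of the somatic gonad had 4 higher and 2 lower of 17, neurotransmitter synthesis and transport 4 and 1 of 15 (2 higher without wild-type replicate 4), and saposin-like proteins 3 and 2 of 14. In nucleolus and ribosome biogenesis 0 were higher and 6 lower of 22 (scaled by total reads, 1 and 0), in the mitochondrial unfolded protein response 1 and 2 of 9, and among vacuolar ATPase subunits 2 and 2 of 19 (scaled by total reads, 9 and 0). Under that scaling transthyretin-like genes had 14 higher and 2 lower, saposin-like proteins 8 and 1, and hedgehog-related genes 7 and 0.

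Shifts under 0.32 on the log2 scale without any overlap between the genotypes were found in 2129 genes, 348 higher and 1781 lower. The genes given here are those of smallest p at a level of at least 5 log2 CPM, so that their libraries are even by choice. pcp-1, a lysosomal carboxypeptidase-like gene, was at 1876, 1863, 2034, 1809 and 1786 in wild type and 2333, 2292, 2354, 2181 and 2479 in the mutant (0.31 ± 0.05, adjusted p = 5.2e-05). gtbp-1, a stress granule protein, was at 21328, 21534, 22316, 21876 and 22926 and 18429.8, 17624, 18086, 17925 and 17841 (-0.29 ± 0.03, adjusted p = 6.33e-06). exo-3, an apurinic endonuclease of DNA repair, was at 4562, 4533, 4490.3, 4789 and 4733 and 3781, 3702, 3649.5, 3816 and 3844 (-0.30 ± 0.03, adjusted p = 6.33e-06). For gtbp-1 and exo-3 the gap between the genotypes was wider than the range within either group. Y16B4A.2 (0.32 ± 0.04) and T12G3.2 (0.31 ± 0.04) were further small rises, and W06B4.1 (-0.30 ± 0.03) and R74.8 (-0.28 ± 0.03) further small reductions. Scaled by total reads alone, 1127 genes had such shifts.

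Single genes outside the lists with a small p and a larger shift are given next; they were singled out after their values were seen, and their even libraries follow from that choice. sax-2, a Furry-family gene that keeps neurons from forming extra neurites, was at 6210.3, 6276, 6163, 6120.3 and 6216 in wild type and 3776, 3861, 3988, 3755 and 3680.1 in the mutant (-0.70 ± 0.03, adjusted p = 1.57e-10). tam-1, a RING finger gene that affects expression of repeated transgenes, was at 6083, 5560.4, 5455, 6242 and 6562 and 3329.9, 3495, 3384, 3385 and 3191 (-0.83 ± 0.05, adjusted p = 1.59e-09). faah-1, which breaks down N-acylethanolamine lipids, was at 598, 594, 572, 462 and 500.4 and 1090.0, 1159, 1101, 1027 and 1059 (1.001 ± 0.07, adjusted p = 1.4e-08). pbo-4, a proton exchanger of the posterior intestine used in defecation, rose too (1.17 ± 0.08, adjusted p = 1.4e-08). None of these 4 genes overlapped between the genotypes.

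Whether the genotype difference depended on age was tested in 1 fit with the 10 old libraries at 20 °C, where the old mutant and old wild type were compared in the same way. The effect of genotype differed between the ages in 4582 of 15632 genes tested, or 29.3%, with 2381 higher in the young comparison and 2201 lower. In 3348 of the 4582 the 2 estimates had opposite signs. That count goes by sign alone, so either effect may be near 0, and the share over all tested genes was not computed. The authors normalized the 2 ages in separate tables, so reads were recovered and scaled over all 20 libraries together, and the levels and fold changes given for age come from that scale and fit. octr-1 was lower at both ages, with log2 fold changes of -1.81 ± 0.16 in young and -2.73 ± 0.16 in old adults, a difference of 0.92 ± 0.22 (adjusted p = 0.00261). Its wild-type level ran 41 to 58 in young and 167 to 194 in old adults. The neighbour T22B7.7 had a genotype effect of 0.93 ± 0.07 in young and -0.12 ± 0.07 in old adults (adjusted p of the difference = 5.41e-08).

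fat-7, a stearoyl-CoA desaturase, ran 3585 to 4013 in young wild type and 4496 to 6639 in young mutants, and 354 to 458 and 106 to 119 in old ones. It was higher in the young mutant (0.49 ± 0.08) and lower in the old one (-1.86 ± 0.08), with an adjusted p of 4.9e-14 for the difference. pgp-5, an ABC transporter, ran 138 to 161 and 281 to 349 in young and 828 to 958 and 389 to 469 in old adults, again wild type first (1.05 ± 0.07 and -1.06 ± 0.07, adjusted p = 1.67e-14). The sign turned in the same way for B0035.13 (0.90 ± 0.06 and -1.63 ± 0.06) and T15B7.1 (0.68 ± 0.06 and -1.05 ± 0.06). fog-1, a germline sex determination gene that promotes sperm fate, turned the other way (-0.40 ± 0.05 and 0.43 ± 0.05, adjusted p = 2.75e-09). sax-2 was lower at both ages and by more in the young (-0.73 ± 0.04 and -0.15 ± 0.04, adjusted p = 2.91e-08).

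Of all genes tested for age, 15.2% had a genotype effect called higher in young adults and 14.1% one called lower. By list, the genotype effect was higher in young than in old adults for 6 of 6 vitellogenins, with medians of -0.01 in young and -0.79 in old adults. The same held for 60 of 111 col collagens (0.49 and -0.54), 12 of 20 body-shape collagens (0.66 and -0.41), 13 of 17 PMK-1 effectors (0.14 and -0.61), 6 of 13 lysozymes (-0.23 and -0.83) and 12 of 23 fatty acid synthesis genes (0.08 and -0.15). The difference was called the other way in 5 col collagens, 1 PMK-1 effector and 1 fatty acid synthesis gene, and in 0 members of the other 3 lists. It was lower in young adults for 52 of 77 cytosolic ribosomal proteins (-0.17 and 0.11), 22 of 35 germline genes (-0.16 and 0.05) and 7 of 8 chaperonin subunits (-0.17 and 0.09). The age fit was not run with scaling by total reads, and shares at matched level were not computed for it. With edgeR under TMM scaling 2672 age differences were called higher in young adults and 1796 lower, against 2381 and 2201. Major sperm proteins were higher in the mutant at both ages, at 1.58 and 2.11, and the difference was called in 5 of 26.

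**Figure D5:**
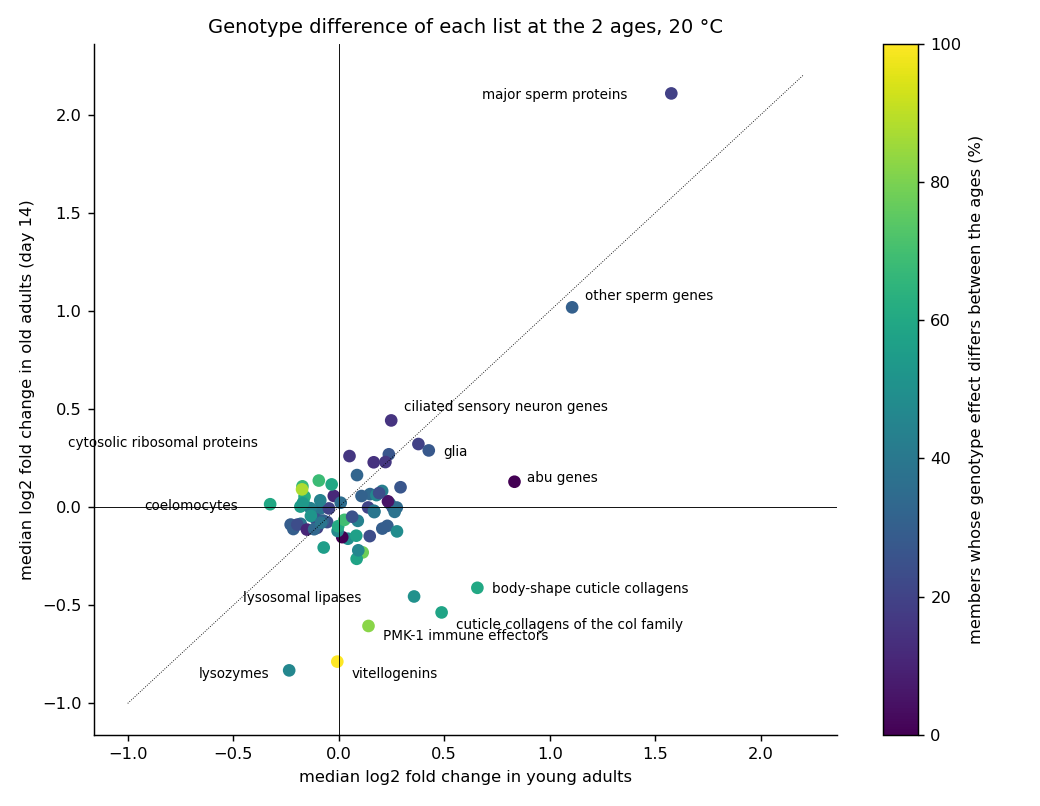
Median log2 fold change of octr-1 mutant over wild type for each gene list in young adults (horizontal) and in old adults of day 14 (vertical), coloured by the percent of members whose genotype effect differed between the ages, with the line of equal effects. Major sperm proteins lie high at both ages, at 1.58 and 2.11, while collagens and PMK-1 effectors lie above 0 in young and below 0 in old adults.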

How the data were processed

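Messenger RNA of whole animals was sequenced from libraries made with a stranded kit, per the labels' protocols. The submitters' processing notes list bcl2fastq, HISAT2 2.2.1, featureCounts, DESeq2 1.31.16 and the build ce10, without their roles. The deposited values are a normalized signal, gene counts that the authors divided by 1 size factor per library within each table; all values came out as whole reads within 0.001 reads. Per the file headers, the authors' tables also hold a log2 fold change and an adjusted p-value for each gene, computed over that table. The series has 9 such tables, of which the 2 that compare the genotypes at 20 °C were used here.

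Values were tested with limma 3.58.1 (trend and robust options, R 4.3.3) on log2(value + 1), with Benjamini-Hochberg adjustment over all tested genes. The recovered counts were refitted with edgeR 4.0.16 (quasi-likelihood test) and DESeq2 1.42.0. For the age difference the reads of 20 libraries were scaled together by median of ratios, and genotype, age and their interaction were fitted. Other alternatives were scaling by total reads alone (young libraries only), no filter, a pseudocount of 0.1, a replicate block and leaving out each library. The limma and edgeR fits of the young libraries were run on simulated data with 200 genes changed in random directions. That is far fewer than the 5722 called here, so it cannot show how the scaling behaves in these data. Tables were handled with python 3.11.15, pandas 2.3.3 and numpy 2.4.6 and drawn with matplotlib 3.10.9. The SE and SD values come from the spread between libraries, and only the floor of 3 reads is limited to counting error.

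The gene lists and named genes were chosen with earlier results of these data known. The share at matched level was added after the results were seen. In each list with a called share at least 1.5 times that of all genes, up to 3 called genes of smallest p and 1 in the other direction were eligible for naming, beside cell markers, the neighbours of octr-1, members of the octopamine list, the small shifts and age differences of smallest p, and a few single large changes; members of the PMK-1, unfolded protein response, muscle and adult marker lists were also named beyond that rule. Gene names and neighbour order came from the reference assembly WBcel235 and no coordinates were converted from ce10.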

Additional observations from a re-analysis of the deposited data

Results flagged for a closer look

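Single libraries lay far from the other 4 of their group, by a gap beyond Dixon's critical value, in 24 of 514 groups tested over 257 genes, and chance gives about 1 in 20. Wild-type replicate 1 was high for gsp-3 (48.7 normalized reads, the others 22.36 to 25.99), abu-14 (16.6), pah-1 (1505), elt-3 (269.7), unc-25 (111) and vit-6 (704810), and low for eif-3.F (8902) and cpr-6 (36840). Other wild-type libraries stood apart for octr-1 (replicate 4, 33.99), cct-8 (replicate 5, 17374), mlt-10 (replicate 2, 195), unc-122 (replicate 3, 45.1) and daf-7 (replicate 3, 13.5). In the mutant, replicate 1 was low for lgc-55 (6.31) and ifb-2 (3661) and high for ptd-2 (25.3), and replicate 2 was high for octr-1 (18.7) and fig-1 (139) and low for ifp-1 (173). Mutant replicate 3 was low for ptr-23 (378) and elt-3 (209), and replicate 5 was high for iff-2 (2473), hsp-43 (3080) and lgc-26 (73.2).

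The genotype effect differed between young and old adults at 20 °C, by the interaction term of the limma fit, in 150 of the 257 genes examined here. The 12 given are those named for their age difference, octr-1 and its neighbour T22B7.7. The difference, young minus old in log2 fold change, was 2.53 for B0035.13, 2.35 for fat-7, 2.11 for pgp-5, 1.73 for T15B7.1, 1.54 for acp-6, 1.05 for T22B7.7 and 0.92 for octr-1. It was -0.83 for fog-1, -0.58 for sax-2, -1.19 for Y41C4A.11, -0.47 for F41C3.5 and -0.49 for C04F12.1.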

How the results depend on the processing

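The number of called genes was 5367 with DESeq2, 5547 and 5384 with edgeR under RLE and TMM scaling, 4716 with scaling by total reads alone, 5761 without a filter and 5710 with a pseudocount of 0.1, against 5722, and leaving out each library gave 4909 to 5776. The 537 genes of at least 2-fold became 1094 without a filter, where fold changes of genes at few reads enter, and 442 to 562 with a library left out. The 2129 small shifts without overlap became 1127 with scaling by total reads and 2109 to 2579 with a library left out. The 48 lists became 43 to 51 with a library left out, and the 4582 age differences 4072 to 4749. Scaling by total reads turned the medians of 13 lists from below to above 0: mitochondrial ribosomal proteins 0.0169, nucleolus and ribosome biogenesis 0.0296, autophagy genes 0.0502, antioxidant enzymes 0.00716, BTB and MATH domain genes 0.0278, octopamine and tyramine signalling 0.0812, pqn genes 0.028, body wall muscle 0.0775, endoplasmic reticulum and mitochondrial unfolded protein response 0.0693 and 0.0364, glycolysis and gluconeogenesis 0.0214, cysteine cathepsins 0.07 and DAF-16 pathway 0.0723; lists with a median below 0 went from 28 to 15. No called gene named here changed sign in any alternative run.

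Replicate numbers did not pair the samples: same-numbered libraries had correlations of 0.14, 0.21, 0.03, 0.04 and 0.08 in their deviations from the group means. The replicate block gave 5815 called genes, 540 of at least 2-fold, 2091 small shifts, 49 lists and 4429 age differences; the calls of puf-5 (adjusted p = 0.05) and frm-5.2 (0.0526) were lost under it. Of the values here, those near 10 normalized reads are limited by depth.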
